A study of Phanerodontia chrysosporium with 8 samples.

Results

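The start of fruiting in the white-rot fungus Phanerodontia chrysosporium, strain RP-78, was followed by comparing young fruiting bodies (n = 2) with vegetative mycelium (n = 3) in polyA RNA libraries. These are 5 of the 8 libraries of the series, taken by their titles, and every gene model in the files was considered, 13602 in all. The third stage, the fruiting body at spore release (n = 3), serves only as a side value. The fungus grew for 7 days on cellophane laid over an agar of malt, yeast extract, peptone and glucose, in darkness at 37 °C, and then fruited at 25 °C under moist air and dim light. Young fruiting bodies were fruiting initials, compact mats set off clearly from the mycelium beside them. No label says when the mycelium was taken, so the effects of stage, culture age, light, temperature and moisture cannot be told apart.

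White-rot fungi grow as a network of hyphae that secretes enzymes able to break down lignin, and P. chrysosporium is a widely studied species in this respect. Its fruiting bodies are thin crusts on the surface of the substrate. Fruiting starts when hyphae aggregate into a dense tissue, which later bears the cells in which meiosis takes place and spores form. In mushroom-forming fungi this step is known for changes in cell wall enzymes, in hydrophobins (small secreted proteins that coat hyphae) and in transcription factors. The files list models by protein number and do not pair these numbers with gene names, so no such class can be picked out here, and the stages could not be checked against marker genes. The change is therefore described by its size, by the abundance and length of the models, and by how well replicates agreed, with 4 models given by number.

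The libraries held 26891371 and 22065312 uniquely mapped gene reads in young fruiting bodies 1 and 2, against 17018503, 35837246 and 20071680 in mycelium 1, 2 and 3. All 5 were run on 1 flowcell. Levels are in RPKM, unique reads scaled to model length and TMM-adjusted library size, which makes models of different length comparable. In each library between 12015 and 12183 models reached 1 RPKM, with 12038 ± 5.66 in young fruiting bodies (SD, n = 2), against 12111 ± 86.7 in mycelium (SD, n = 3; exact permutation test, two-sided, p = 0.4, where 0.1 is the smallest p this design allows). The number of models at or above 10 RPKM was 8394 ± 12.7 in young fruiting bodies (SD, n = 2), against 8402 ± 174 in mycelium (SD, n = 3), a difference smaller than the spread of the mycelium libraries. Because whole tissue was sequenced, fewer cells of a type and less RNA per cell cannot be told apart.

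The stages lay further apart than replicates did. The median absolute difference between 2 libraries, taken over models on the log2 scale, was 0.53 to 0.69 in the 6 pairs across stages. It was 0.30 for the pair of young fruiting bodies and 0.26 to 0.33 for the 3 mycelium pairs. Models at least 4-fold apart numbered 1197 to 1410 in a pair across stages, against 83 between the young fruiting bodies and 30 in each mycelium pair. Put as the share of unique reads that would have to move to other models to turn one library into the other, the cost was 31.0 to 40.9% across stages, 14.7% between the young fruiting bodies and 14.0 to 16.0% within mycelium. Young fruiting body 2 lay nearer to every mycelium library than young fruiting body 1 did, and mycelium 3 was the nearest mycelium library to both, by the median difference and by the reads redistributed alike. By Pearson correlation of log2 levels, mycelium 2 was the nearest to young fruiting bodies 1 and 2, at 0.812 and 0.842. Mycelium 3 followed at 0.806 and 0.837.

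**Figure D1:**
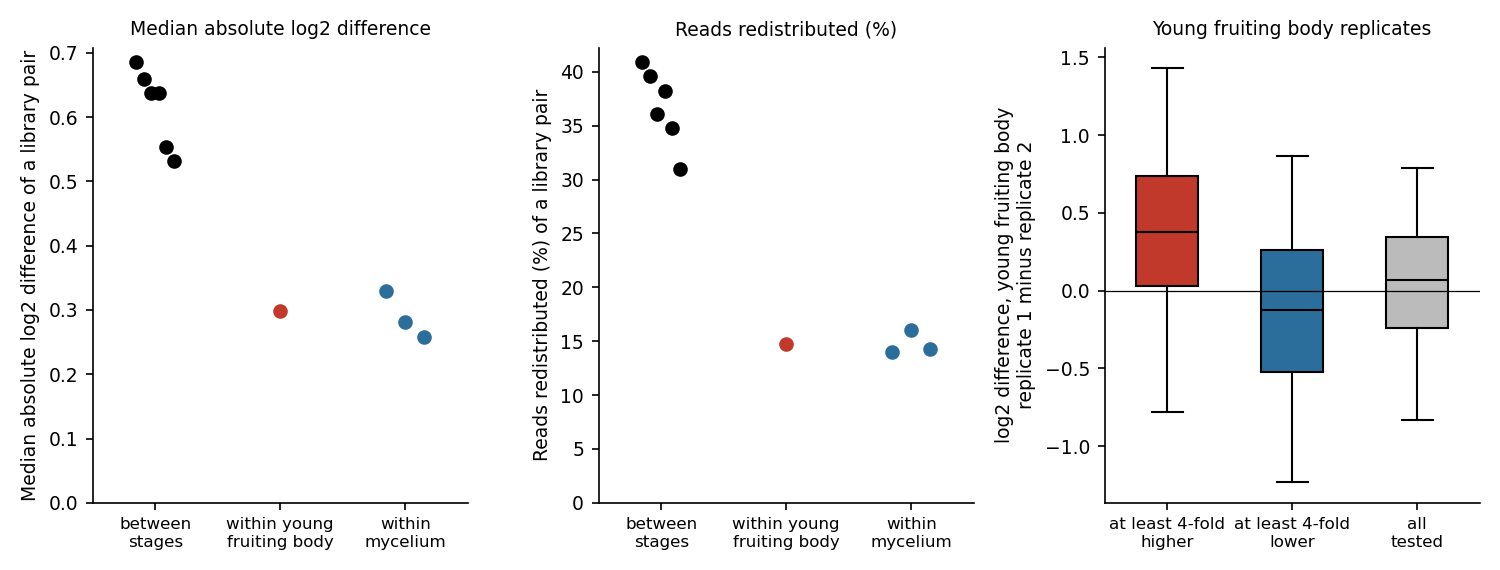
The left and middle panels plot, for each pair of libraries (1 point), the median absolute log2 difference over models and the share of unique reads redistributed (%), for pairs across stages, within young fruiting bodies and within mycelium. The right panel shows the log2 difference of young fruiting body replicate 1 minus replicate 2 for models at least 4-fold higher, at least 4-fold lower and all tested (box: quartiles, line: median, whiskers: 5th to 95th percentile). Every pair across stages lies above every replicate pair, and the models that were higher sit above 0 with a median of 0.37.

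In young fruiting bodies 2460 of 12465 tested models were higher (19.7%) and 2405 lower (19.3%) than in mycelium, together 39.0% of those tested. A model was called where the quasi-likelihood test of edgeR gave a p below 0.05 after Benjamini-Hochberg adjustment over all tested models. Rises and falls were nearly balanced, and the median log2 fold change of all tested models was -0.01. Most of these changes were modest. The median log2 fold change was 1.21 among models called higher and -1.37 among those called lower, with 869 of the rises and 610 of the falls below 2-fold and a further 987 and 1179 between 2- and 4-fold. At least 4-fold higher were 604 models (4.85% of those tested) and at least 4-fold lower were 616 (4.94%). When the test itself asked for more than a 2-fold change (edgeR glmTreat, adjusted p below 0.05), 773 models were higher (6.20%) and 788 lower (6.32%), together 12.5%.

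The number of calls depended on single libraries, while the larger changes varied less. Without young fruiting body 1, 1551 models were called higher and 1491 lower, and the lone young fruiting body was then assumed to vary like the mycelium. Of the 1220 models changed at least 4-fold, 1176 to 1201 were still called in the same direction after leaving out any 1 of the 5 libraries. With the 3 fruiting body libraries added to the same fit, 1882 models were called higher and 1368 lower, and 393 rather than 788 fell beyond 2-fold. Among the added libraries, fruiting bodies 1 and 2 differed by a median of 0.25 on the log2 scale, and fruiting body 3 differed from them by 0.58 and 0.49. With fruiting body 3 left out, 2649 models were called higher and 2492 lower. In either of these larger fits, 1124 or 1219 of the 1220 models were called in the same direction.

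The largest changes were more often rises. Of 12465 tested models, 109 were at least 32-fold higher and 62 at least 32-fold lower. Those 109 had a median of 308 RPKM in young fruiting bodies (range 8.27 to 15323) and of 3.41 RPKM in mycelium (range 0.0182 to 77.2). The 62 that fell had a median of 5.34 RPKM in young fruiting bodies (range 0.0850 to 173) and of 541 RPKM in mycelium (range 6.56 to 56941). Past 256-fold the split was 18 higher and 15 lower. The excess of rises past 32-fold was not tested. Each of the 15 alternatives tried also had it, with 93 to 120 higher and 43 to 78 lower. These fits share libraries with the first and are not independent of it.

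**Figure D2:**
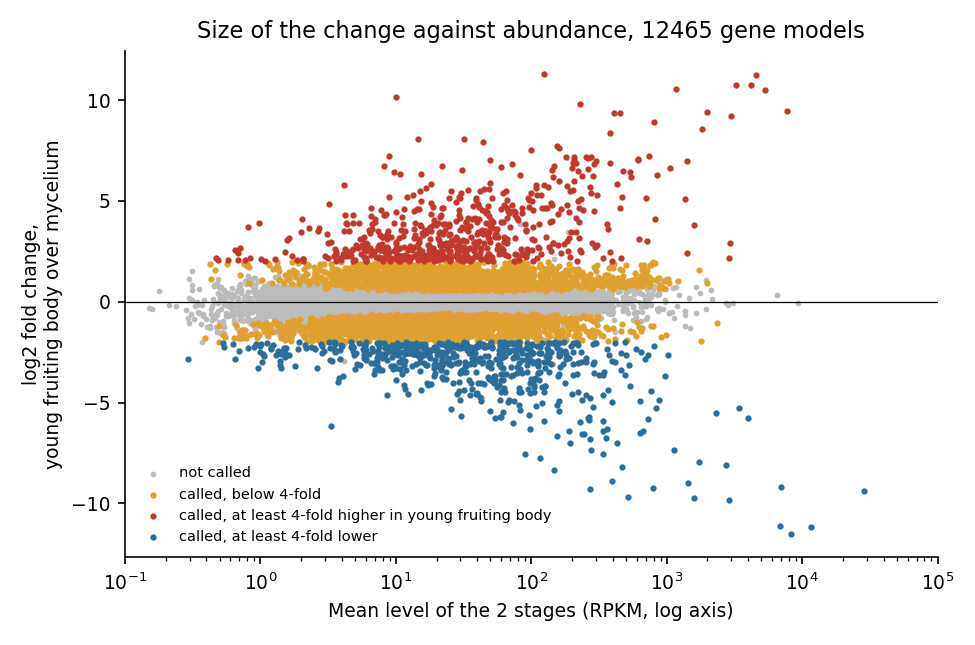
Each point is 1 of 12465 tested gene models, placed by the mean of its 2 stage means (RPKM, log axis) and its log2 fold change, young fruiting body over mycelium. Red and blue points are the 604 and 616 models called at least 4-fold higher and lower, yellow points are called with a smaller change and grey points are not called. Changes past 256-fold, at 8 or -8 on the vertical axis, number 18 and 15.

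Most models that rose were detected in mycelium, though less often than tested models as a whole. Of the 604 models at least 4-fold higher, 498 (82.5%) were at or above 1 RPKM in every mycelium library, against 95.5% of all tested models. Their median was 50.8 RPKM in young fruiting bodies (quartiles 19.8 and 141) and 4.70 RPKM in mycelium (quartiles 1.91 and 9.71). Most of the 616 that fell were likewise still detected. In both young fruiting bodies 544 (88.3%) reached 1 RPKM, against 95.5% of all tested models. They had a median of 6.37 RPKM in young fruiting bodies (quartiles 2.73 and 18.8) and of 66.4 RPKM in mycelium (quartiles 20.4 and 197). All of these levels come from the libraries that chose the models and are a description.

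A switch from or to near silence was rare, and how far it leaned to rises depended on the cutoffs. In 23 of the 13602 models both young fruiting bodies were at or above 10 RPKM and all mycelium libraries below 1. These thresholds fix that their libraries lie at least 10-fold apart. Their mean level in young fruiting bodies ran from 12.6 to 460 RPKM with a median of 23.4, against 0.0182 to 0.789 RPKM with a median of 0.501 in mycelium. The opposite held for 3 models, whose libraries ran from 0.639 to 0.970 RPKM in young fruiting bodies and from 12.6 to 708 RPKM in mycelium. The first class asks all 3 mycelium libraries to be low, the second only both young fruiting bodies. By the stage mean alone, 73 of the 604 models at least 4-fold higher were below 1 RPKM in mycelium. Of the 616 at least 4-fold lower, 57 were below 1 RPKM in young fruiting bodies. Another 7 models had 0 unique reads in all mycelium libraries and some in both young fruiting bodies. In the opposite direction, 1 model had 0 unique reads in both young fruiting bodies and some in every mycelium library. None of these 8 was called. The 7 held 3 to 18 reads over both young fruiting bodies, where a count of 0 allows up to 3 reads in a library. So few reads do not pass the filter on low counts, so these 7 were not tested and their lack of a call is no result.

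The 4 models given by number had the largest gains and the largest losses of mean RPKM among models called, changed at least 4-fold and not overlapping between stages. That rule left 603 models that rose and 616 that fell to choose from. Model 2959355 (375 bp) stood at 20259 and 10388 RPKM in young fruiting bodies 1 and 2, against 37.3, 17.5 and 10.4 RPKM in mycelium 1, 2 and 3. It was the most abundant model per length in both young fruiting bodies and ranked between 4128 and 8375 in the mycelium libraries. Its log2 fold change was 9.47 ± 0.70 (SE; adjusted p = 1.31e-05, edgeR quasi-likelihood test).

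Model 6405 (1713 bp) stood at 13679 and 7619 RPKM in young fruiting bodies 1 and 2, against 10.1, 6.48 and 5.49 RPKM in mycelium 1, 2 and 3. It took 2.35 and 1.39% of all unique reads in the young fruiting bodies, the largest gain of reads of any model called at least 4-fold higher. The log2 fold change was 10.50 ± 0.62 (SE; adjusted p = 1.56e-06, edgeR). For both models the libraries of the stages were far apart, and young fruiting body 1 was well above young fruiting body 2.

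Model 2991215 (580 bp) stood at 102 and 70.0 RPKM in young fruiting bodies 1 and 2, against 63130, 88704 and 18990 RPKM in mycelium 1, 2 and 3. In every mycelium library it was the most abundant model per length. It took 3.57, 4.74 and 1.14% of unique reads in mycelium 1, 2 and 3, and its log2 fold change was -9.37 ± 0.98 (SE; adjusted p = 6.31e-05, edgeR). Mycelium 3 was well below the other mycelium libraries, yet far above both young fruiting bodies, where the model still ranked 1581 and 2280 by level.

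Model 3027993 (660 bp) stood at 9.37 and 10.5 RPKM in young fruiting bodies 1 and 2, against 27842, 32596 and 9710 RPKM in mycelium 1, 2 and 3. Here too mycelium 3 was the lowest of its stage, and the young fruiting bodies were close to each other. The log2 fold change was -11.20 ± 0.89 (SE; adjusted p = 9.60e-06, edgeR). At spore release, fruiting bodies 1, 2 and 3 had 23268, 16706 and 9132 RPKM of model 2959355 and 20646, 13487 and 5882 RPKM of model 6405. They had 261, 175 and 175 RPKM of model 2991215 and 1.86, 3.47 and 12.7 RPKM of model 3027993, so in the 3 libraries of the later stage these 4 models stayed far from their mycelium levels. These last values were scaled with all 8 libraries.

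**Figure D3:**
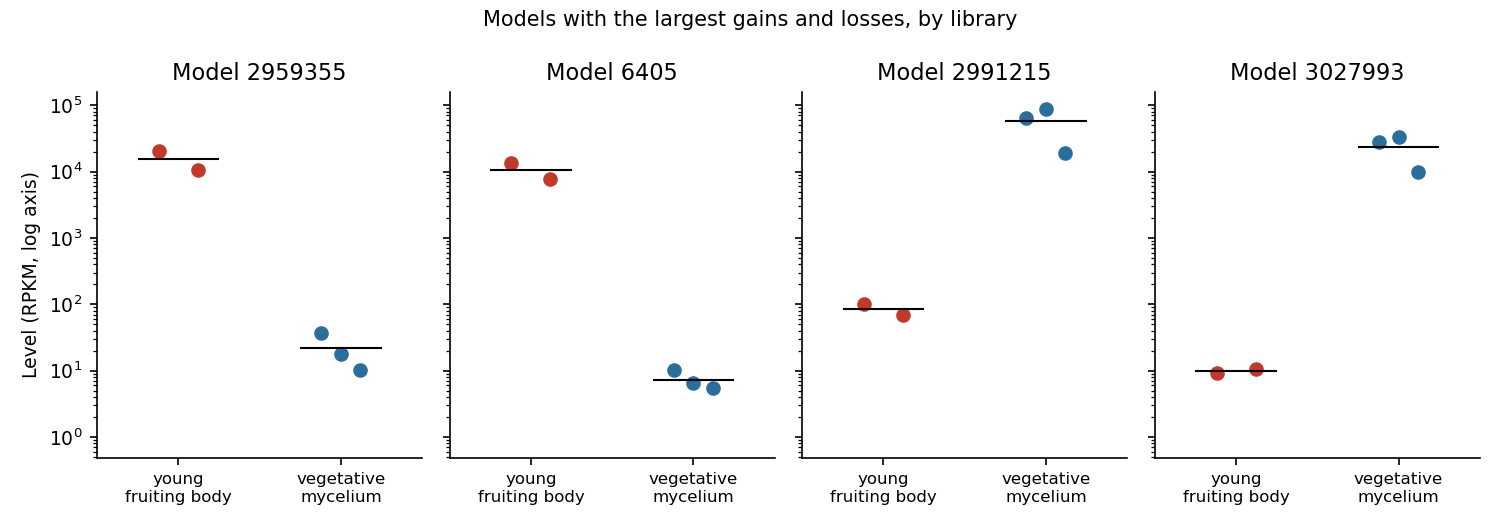
Levels (RPKM, log axis) of the 4 models with the largest gains and losses, 1 point per library and a line at the mean, for young fruiting bodies (n = 2) and vegetative mycelium (n = 3). Models 2959355 and 6405 lie at 7619 RPKM or more in both young fruiting bodies and at 37.3 RPKM or less in mycelium, and models 2991215 and 3027993 show the reverse order with the widest spread in mycelium.

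Within the sets changed at least 4-fold, few models carried much of the change in read share. The 604 models at least 4-fold higher took 20.2 and 14.8% of unique reads in young fruiting bodies 1 and 2, against 0.822, 0.782 and 0.857% in mycelium 1, 2 and 3. The 616 models that fell at least 4-fold took 1.25 and 1.58% in young fruiting bodies 1 and 2, against 27.2, 24.3 and 19.2% in mycelium 1, 2 and 3. Of the gain in mean read share of the 604 models, 11.2% came from 1 model, 40.1% from 10 and 50% from 17. The loss of the 616 models was spread in a similar way, with 14.2% from 1 model, 49.6% from 10 and 50% from 11. Gains and losses of models outside these sets are not part of these shares. These shares describe the libraries that chose the models.

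The lists of the most abundant models overlapped in part across stages. By unique reads, 8 models were among the 10 most abundant in both young fruiting bodies and 5 in all 3 mycelium libraries, and 0 were in all 5 lists. Of the lists of 100, 73 models were in those of both young fruiting bodies, 69 in those of all mycelium libraries and 22 in all 5. A model in all 5 lists is also in those of each stage, so these counts cannot compare sharing within and across stages. Of the 8 models in both young fruiting body lists of 10, 1 was in the list of any mycelium library. For the lists of 100, this held for 30 of the 73. At or above a mean of 1000 RPKM were 77 models in young fruiting bodies and 63 in mycelium, and 20 models were in both lists. That is 20 of 77 and 20 of 63, and nothing is read from calls in these lists, since choosing by the level in 1 stage fixes their direction. The 10 most abundant models took 7.22 ± 2.01% of unique reads in young fruiting bodies (SD, n = 2), against 11.4 ± 3.56% in mycelium (SD, n = 3; exact permutation test, two-sided, p = 0.3, where 0.1 is the smallest possible). The libraries of the stages overlapped, with 8.65% in young fruiting body 1 and 7.28% in mycelium 3. The effective number of models, the exponential of the Shannon entropy of per-length shares, averaged 3054 ± 461 over young fruiting bodies (SD, n = 2) and 2168 ± 766 over mycelium libraries (SD, n = 3; exact permutation test, two-sided, p = 0.3).

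**Figure D4:**
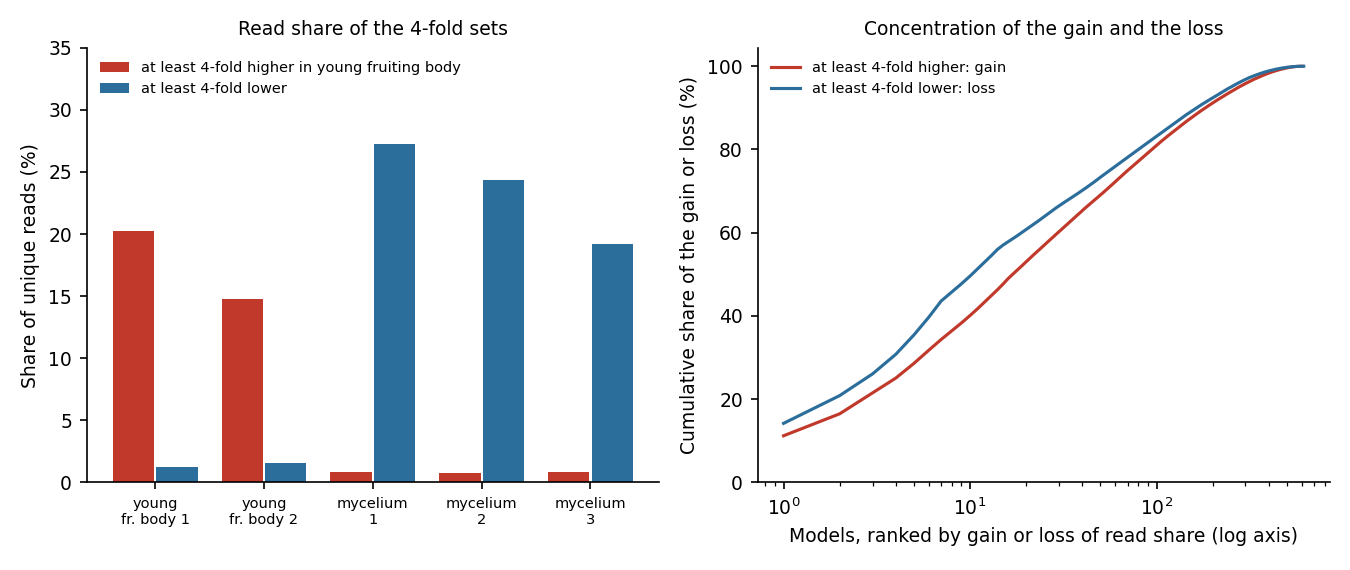
The left panel shows the share of unique reads (%) taken in each library by the models at least 4-fold higher (red) and at least 4-fold lower (blue) in young fruiting bodies. The right panel ranks the models of each set by gain or loss of mean read share (log axis). It plots the cumulative share of the gain or loss of that set (%), which passes 50% at 17 and 11 models.

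How the change related to abundance depended on the scale used to sort the models. By the arithmetic mean of the 2 stages, 31 of 63 models at or above 1000 RPKM changed at least 4-fold (49.2%). That share was 17.1% between 100 and 1000 RPKM, 9.16% between 10 and 100, 7.22% between 1 and 10 and 7.67% below 1, against 9.79% of all models tested. An arithmetic mean places a model that is high in 1 stage only in a high class. By the geometric mean, in a sorting chosen after seeing the data, the share was 16.7% of 36 models at or above 1000 RPKM and 9.58 to 11.7% in all lower classes. Among models changed at least 4-fold, falls outnumbered rises between 100 and 1000 RPKM. There 112 were higher and 152 lower by the arithmetic mean, and 49 higher and 82 lower by the geometric mean. Among all calls in that class the order was reversed, with 420 higher and 323 lower by the arithmetic mean. The geometric mean gave 342 and 230. Between 1 and 10 RPKM, 123 were at least 4-fold higher and 120 lower by the arithmetic mean, against 202 and 160 by the geometric mean. All calls there were 446 higher and 720 lower by the arithmetic mean, and 564 and 810 by the geometric mean.

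Longer models changed less. At least 4-fold changes were called in 11.7% of the models below 300 bp, 11.8% of those from 300 to 600 bp, 10.9% from 600 to 1200 bp and 9.57% from 1200 to 2400 bp. They were called in 5.73% of models from 2400 to 4800 bp and in 1.99% of the 151 models of at least 4800 bp, which is 3 models. The median absolute log2 fold change fell in step from 0.65 in models of 300 to 600 bp to 0.40 in the longest class. The median SE of the log2 fold change was smallest in the longest class, at 0.23, against 0.29 from 300 to 600 bp. Between 10 and 100 RPKM alone, the share changed at least 4-fold was 13.6% from 300 to 600 bp, 9.16% from 1200 to 2400 bp, 4.96% from 2400 to 4800 bp and 1.67% of 120 models of at least 4800 bp. From 2400 to 4800 bp the changes leaned upward, with 53 models at least 4-fold higher and 28 at least 4-fold lower. The shares by abundance and length are a description of these models, with no test.

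**Figure D5:**
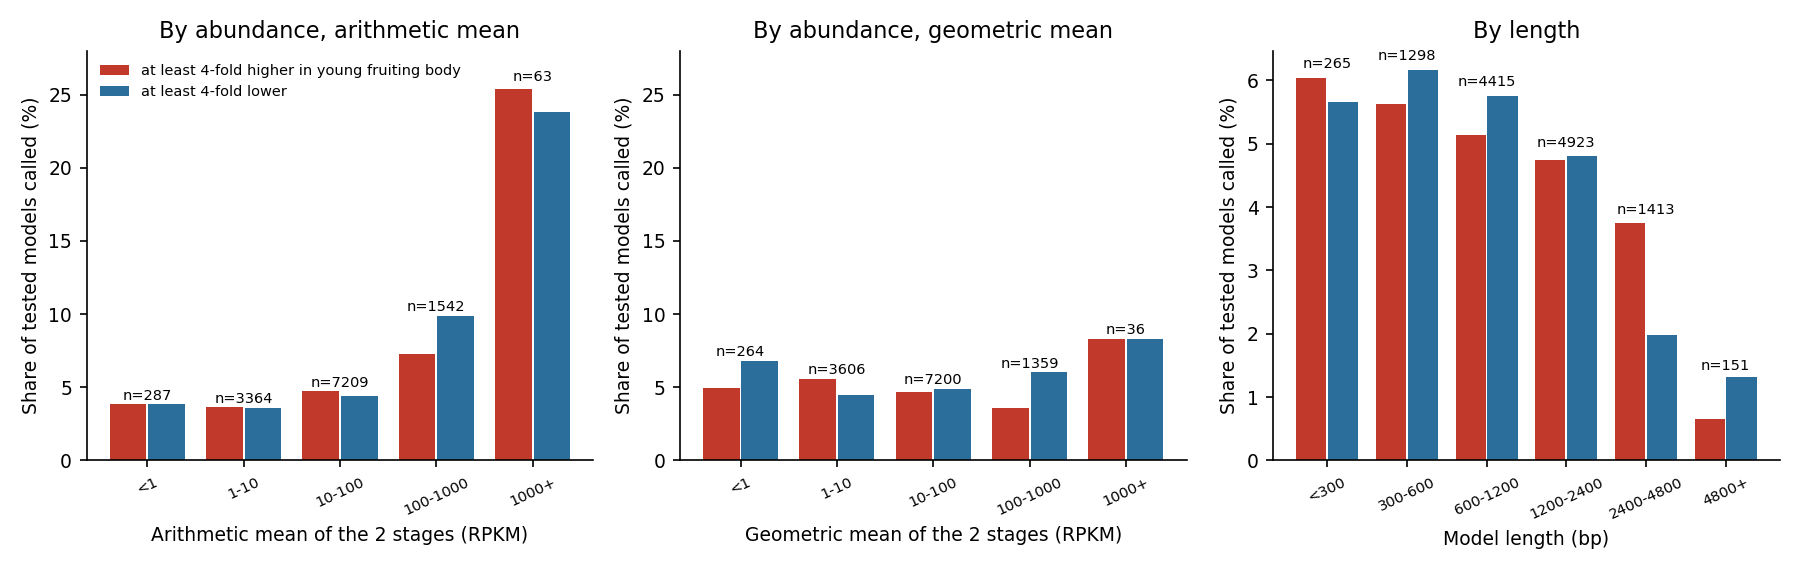
Share of tested models (%) called at least 4-fold higher (red) or at least 4-fold lower (blue) in young fruiting bodies, by the arithmetic mean of the 2 stages (RPKM), by their geometric mean (RPKM) and by model length (bp), with the number tested above each pair of bars. The steep rise in the class at or above 1000 RPKM in the left panel is mostly gone in the middle one, and the right panel falls to 1.99% in total for the longest models.

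How far the set of called models held depended on the size of the change. Of the 4865 called models, 2906 (59.7%) were still called in the same direction without young fruiting body 1 and 3578 (73.5%) without young fruiting body 2. Of the 1220 models changed at least 4-fold, 1177 (96.5%) and 1196 (98.0%) were. These fits share the other 4 libraries, so they are not independent of the first. Over all tested models, with no choice by call, the libraries of the 2 stages did not overlap for 62.5%, and the gap between the stages was wider than the widest range among replicates of either stage for 30.8%. With so few libraries, some models would not overlap even without a change between stages. The biological coefficient of variation, the typical spread between replicates beyond counting error, was 25.0% in young fruiting bodies and 22.8% in mycelium.

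Young fruiting body 1 showed the larger change. Of the 604 models at least 4-fold higher, 461 (76.3%) were higher in young fruiting body 1 than in young fruiting body 2, against 56.1% of all tested models. The median log2 difference was 0.37, against 0.07 over all tested models. Of the 616 models at least 4-fold lower, 360 (58.4%) were lower in young fruiting body 1, against 43.9% of all tested, with a median log2 difference of -0.12. The models that changed at least 4-fold also varied more within a stage than models not called. Their median absolute log2 difference between the young fruiting bodies was 0.49 for those higher and 0.40 for those lower, against 0.29 in models not called. The median range over the mycelium libraries was 0.60 and 0.78, against 0.46. The calls come from these same libraries, and the sets also differ in level. Their medians in young fruiting bodies were 50.8 RPKM for those higher, 6.37 for those lower and 23.1 for those not called. The part of level in this spread was not tested. With 1 pair of young fruiting bodies, no test of these differences between replicates is possible.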

How the data were processed

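For each library the authors deposited read counts per gene model (unique and total, per the file headers), the model length and TPM. TPM recomputed from total reads matched the deposited TPM to within 3.21e-07. A deposited matrix gives log2 values for 12746 models, used as log2 RPKM in 1 alternative. Tools listed in the submitters' processing notes are limma 3.18.13, edgeR 3.4.2 and R 3.0.2, with no role. Aligner and genome release are not given in the sources used here. Per the labels' protocols the library kit was TruSeq v2, which does not mark strand, so overlapping antisense models cannot be told apart.

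Unique gene reads, 0.447 to 0.576% below total reads, entered edgeR 4.0.16 in R 4.3.3 (filterByExpr, TMM, robust dispersions and quasi-likelihood fit) with the 5 libraries of both stages and stage as the only term. A count of 0 allows 3 reads, or 0.0837 to 0.176 CPM, and such limits cover counting error only. SE is the absolute log2 fold change divided by the square root of F. Log2 CPM used a prior count of 2. Counts of replicate pairs differed by more than sampling noise (chi-square over degrees of freedom 121 to 166). The series calls them biological replicates and does not describe separate cultures, so p-values reflect only the spread of these samples, which may be technical. The fit was also run on simulated data, with the outcome not reported here.

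The models named were the largest 2 gains and 2 losses of mean RPKM among called, at least 4-fold changed, non-overlapping models. The comparison, the rule for these models and the choice of 5 libraries were made with earlier results of these data known. Alternatives were DESeq2 1.42.0, limma-voom and limma-trend (limma 3.58.1), upper-quartile factors, other filters, total reads, a replicate block, fits with the fruiting bodies, and each library left out. Product lists could not be applied without gene names.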

Additional observations from a re-analysis of the deposited data

Results flagged for a closer look

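A signal lay in reads outside the count used. Of 719 models with 0 unique reads in all 5 libraries, 60 had more total gene reads in some library than the 3 that a count of 0 would allow. Together they took 1300 and 1020 CPM of total gene reads in young fruiting bodies 1 and 2, against 751, 794 and 839 in mycelium 1, 2 and 3. In this sum the libraries of the stages did not overlap, as held for 62.5% of single models tested on unique reads. Which of the 60 models carry the sum was not examined, and the difference was not tested. These models share all their reads with other models and enter no count of calls.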

How the results depend on the processing

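Of 110 counts and values recomputed under an alternative, 105 stayed within 1.5 times, or within the spread of replicates. With all 8 libraries in 1 fit, 1368 models were called lower and 393 fell beyond 2-fold. Without young fruiting body replicate 1, calls fell to 1551 higher and 1491 lower. Leaving out each library in turn gave 1551 to 2290 models called higher and 1491 to 2260 called lower. With the geometric mean of the stages, 16.7% of models at or above 1000 RPKM changed at least 4-fold. The cause of the first shifts was not tested. Models at least 4-fold higher numbered 563 to 665, and at least 4-fold lower 533 to 691, over all alternatives. The log2 fold changes of the 4 named models kept their direction and their call in all 60 recomputed values, with adjusted p of at most 0.00246.

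Replicate numbers 1 and 2 occur in both stages, but nothing says that they mark shared cultures. Deviations from the stage mean correlated across models at 0.197 for number 1 and 0.129 for number 2. Young fruiting body 2 with mycelium 3, of unlike number, gave 0.0933. Deviations of the young fruiting bodies mirror each other by construction, so each remaining pair repeats a value with its sign reversed. The values for numbers 1 and 2 are therefore not separate evidence of pairing. With the replicate block, which leaves 1 residual degree of freedom, 2327 models were called higher and 2388 lower. Depth limits the models of few reads: those below a mean of 1 RPKM had a median SE of 0.46, against 0.24 between 10 and 100 RPKM.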
